A study of Mus musculus with 8 samples.

Results

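Müller glia are the radial support cells that span the whole thickness of the retina, and 10 genes that mark them or carry out their housekeeping work were followed in Lpcat1 wildtype (WT) and knockout (KO) retinas. The genes are Slc1a3, Aqp4, Kcnj10, Glul, Dkk3, Clu, Apoe, Vim, Sox9 and Hes1, given by name, with no limit on any measured value. They were represented by 11 of the 55681 probes of the array, namely every non-control probe whose RefSeq transcript belongs to 1 of the 10 genes. Aqp4 had 2 probes and each other gene had 1. All 11 probes were well above background on all 8 arrays, so all 10 genes were tested.

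The study asked which transcripts differ in the retina of mice without lysophosphatidylcholine acyltransferase 1 (Lpcat1), an enzyme that makes saturated phosphatidylcholine, because photoreceptors of these mice die early. Total RNA from whole retina of mice on a C57BL/6 background, 2w of age by their labels, was hybridised in 1 colour to an Agilent array, with 4 Lpcat1 WT and 4 Lpcat1 KO samples. Per the study's methods, the deletion was made on a C57BL6/N background and crossed to C57BL6/J so that no mouse was homozygous for the rd8 mutation of Crb1. Sex, litter and the number of retinas per sample are not given in the sources used here, so p-values measure the spread between these 8 samples. The 8 arrays shared 1 slide, on which WT filled the first row and KO the second, and an effect of slide row therefore cannot be told apart from an effect of genotype. The Lpcat1 probe read -0.41 ± 0.03 in WT and -0.87 ± 0.06 in KO (SD, n = 4 each), a KO minus WT difference of -0.46 that passed the test (limma adjusted p = 0.0036). Whether this probe lies inside the deletion is not known, so it checks the labels only in part. No spot was saturated (0 spots), and between 33113 and 36373 probes per array were well above background.

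Müller glia take up the glutamate released by neurons and turn it into glutamine, carry the potassium and water set free by neuronal activity towards the blood vessels and the vitreous, and secrete lipid carriers and extracellular chaperones. They arise last among the cells that retinal progenitors give rise to, and transcription factors such as Sox9 and the Notch effector Hes1 take part in that step. After photoreceptor damage these cells become reactive, a state called gliosis. The genes below are therefore taken in the order of these roles: membrane transport, the glutamine enzyme, secreted proteins, the cytoskeleton, and the transcription factors.

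Levels are log2 of the processed signal minus the 75th percentile of the same array, and every difference is KO minus WT in the same log2 unit. Standard errors (SE) come from limma, and p-values were adjusted by the Benjamini-Hochberg method over all 33972 probes tested. A probe was called when its adjusted p was under 0.05 and its fold change over 1.2. By that rule 3 of the 10 genes were called, Kcnj10, Clu and Apoe, all higher in KO. The same rule called 2.92% of all probes tested, with 1.38% higher and 1.54% lower in KO, and by gene it called 3.96% of 14939 named genes, with 2.2% higher and 1.77% lower. In 6 of the 10 genes (7 of 11 probes) all 4 KO values lay above all 4 WT values, which held for 6.04% of all probes (17.5% with either genotype on top). Of these 6 genes 3, Aqp4, Glul and Dkk3, were not called. With the replicate number, which is also the slide column, as a block, limma called only Apoe of the 10 genes. With no filter on dim probes, where 55681 probes were tested, limma called 0 of the 10 genes (adjusted p from 0.0534 to 0.0616 for Apoe, Clu and Kcnj10), and with quantile normalization or cyclic loess it called 5, adding Aqp4 and Dkk3. In whole tissue, more transcript per Müller cell and more Müller cells among the cells of the retina cannot be told apart, and this applies to every value below.

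**Figure D1:**
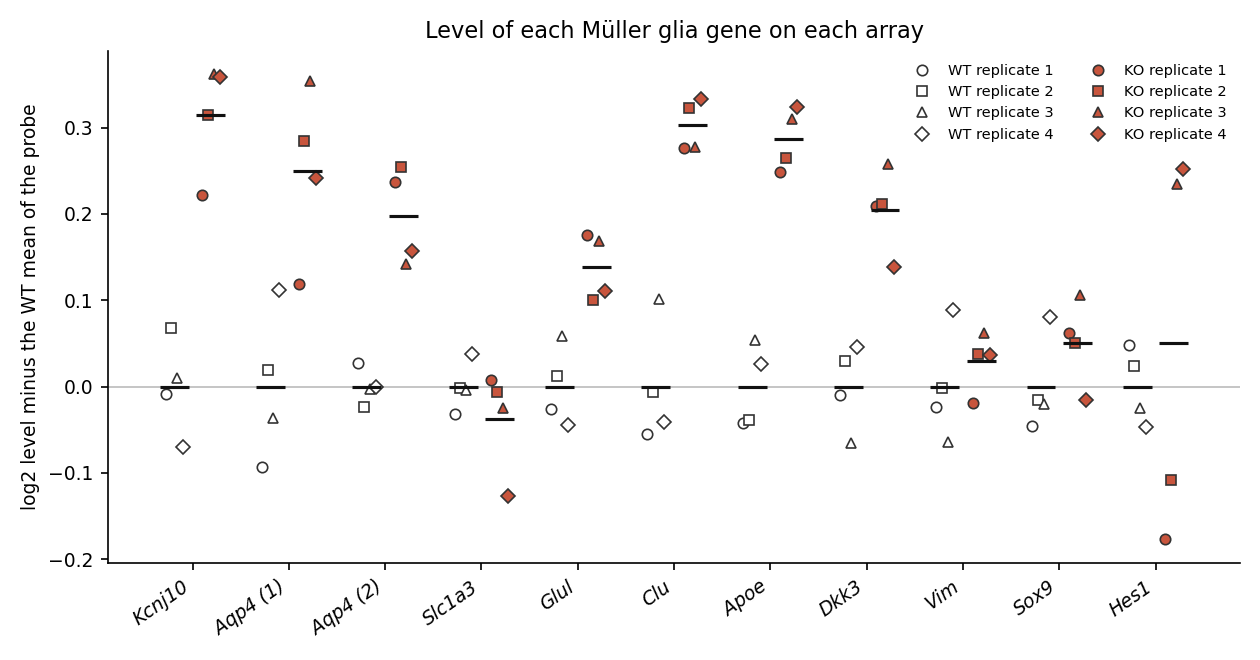
Level of each probe on each of the 8 arrays, as log2 level minus the WT mean of the same probe (y axis), for the 10 Müller glia genes (x axis; Aqp4 has 2 probes). Open symbols are WT and filled symbols KO, the shape gives the replicate number, and the bars are the means of 4 arrays; KO lies above WT without overlap for Kcnj10, both Aqp4 probes, Glul, Clu, Apoe and Dkk3.

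Among the membrane transport genes, Kcnj10 rose, Aqp4 was higher without meeting both limits of the call, and Slc1a3 had the only negative difference of the 10 genes. Kcnj10 encodes Kir4.1, the inward rectifier channel through which Müller glia pass potassium. Its level was 2.60, 2.67, 2.62 and 2.54 in WT replicates 1 to 4 and 2.83, 2.92, 2.97 and 2.96 in KO replicates 1 to 4. The lowest KO sample, replicate 1, was thus 0.15 above the highest WT sample. The difference was 0.31 (SE 0.05, limma adjusted p = 0.0155), or 1.24-fold (95% interval 1.15 to 1.34). Without KO replicate 2 the adjusted p of limma became 0.0509 and the call was lost, as it also was with the replicate number as a block.

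Aqp4 encodes the water channel aquaporin-4, which lies in the Müller endfeet together with Kir4.1. Its brighter probe read 1.02, 1.13, 1.08 and 1.22 in WT and 1.23, 1.40, 1.47 and 1.35 in KO. The groups came within 0.01 of each other, because WT replicate 4 was high and KO replicate 1 was low. The difference of 0.25 (SE 0.06) had a limma adjusted p of 0.0616. The second probe read 1.15, 1.10, 1.12 and 1.12 in WT and 1.36, 1.38, 1.26 and 1.28 in KO. Here WT varied little, and a difference of 0.20 (SE 0.04) had a limma adjusted p of 0.034, but its 1.15-fold change was under the limit of 1.2. The 2 probes therefore gave differences of similar size, and neither met both limits.

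Slc1a3 encodes GLAST, the glutamate transporter of Müller glia, which astrocytes also carry. It read 2.98, 3.01, 3.01 and 3.05 in WT and 3.02, 3.01, 2.99 and 2.89 in KO. The groups overlapped, with KO replicate 4 the lowest of the 8 samples. The difference was -0.04 (SE 0.04, limma adjusted p = 0.632), with a 95% interval from -0.13 to 0.06. That interval leaves out the differences seen for Kcnj10, Clu and Apoe. Within each array, the level of Kcnj10 minus that of Slc1a3, taken relative to its WT mean, ran from -0.11 to 0.07 in WT and from 0.21 to 0.48 in KO. The change of 0.35 in this difference had an exact two-sided permutation p of 0.0286, the smallest that 4 against 4 samples allow. Adjusted over the 7 gene pairs compared in this way it was 0.05, which is not under the threshold. Kcnj10 alone separated the genotypes and Slc1a3 did not, so this p was close to fixed by the choice of the pair.

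The upstream sequences of Kcnj10 and Slc1a3 are shown because Kcnj10 was called and Slc1a3 was not. RefSeq windows of 250 bases before the transcription start (GRCm38.p6) were at hand for 5 of the 10 genes, Slc1a3, Kcnj10, Glul, Apoe and Vim. Kcnj10 lies at chr1:172340960-172341209 on the plus strand and Slc1a3 at chr15:8710808-8711057 on the minus strand, both written 5′ to 3′ on the strand of the gene. Capitals mark matches, on either strand, to the SOX core (ACAATG or ACAAAG), the N-box bound by Hes proteins (CACNAG), the AP-1 site (TGANTCA) or the STAT site (TTCNNNGAA).
Kcnj10: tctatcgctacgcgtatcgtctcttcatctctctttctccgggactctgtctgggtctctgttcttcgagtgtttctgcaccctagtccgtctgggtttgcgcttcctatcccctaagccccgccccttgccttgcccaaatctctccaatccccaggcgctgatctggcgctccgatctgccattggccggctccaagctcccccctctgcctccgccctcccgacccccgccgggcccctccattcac
Slc1a3: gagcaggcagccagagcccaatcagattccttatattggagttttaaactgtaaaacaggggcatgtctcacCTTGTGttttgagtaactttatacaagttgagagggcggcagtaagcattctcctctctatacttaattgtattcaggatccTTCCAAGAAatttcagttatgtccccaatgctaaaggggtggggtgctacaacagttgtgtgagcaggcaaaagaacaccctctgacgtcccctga
The Kcnj10 window held none of the 4 marked motifs (0 matches), and its GC content was 62%. The Slc1a3 window had a GC content of 44.8% and held 1 N-box and 1 STAT match. Of 32851 promoter windows of the same length, 25.2% held a SOX core, 36.7% an N-box, 6.75% an AP-1 and 7.02% a STAT match, and the matches are given as a description of the letters only.

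Glul encodes glutamine synthetase, the enzyme that converts glutamate and ammonia into glutamine and the classical marker of mature Müller glia. It read 5.67, 5.71, 5.75 and 5.65 in WT and 5.87, 5.79, 5.86 and 5.80 in KO. All KO samples lay above all WT samples, but by only 0.04. The difference of 0.14 (SE 0.04), or 1.10-fold, was not called (limma adjusted p = 0.0818). Its 95% interval, 0.05 to 0.23, lay above 0 and below the values of Kcnj10, Clu and Apoe. Within each array, the level of Glul minus that of Slc1a3 ran from -0.08 to 0.06 relative to its WT mean in WT and from 0.11 to 0.24 in KO (exact permutation p = 0.0286, and 0.05 adjusted over the 7 pairs). The Glul window held 1 N-box and none of the other marked motifs.

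All 3 genes of secreted proteins were higher in every KO sample than in any WT sample, and 2 of them were called. Clu encodes clusterin, an extracellular chaperone that binds misfolded proteins and lipids. It read 6.68, 6.73, 6.84 and 6.69 in WT and 7.01, 7.06, 7.01 and 7.07 in KO. The lowest KO sample was 0.18 above the highest WT sample, WT replicate 3. The difference was 0.30 (SE 0.04, limma adjusted p = 0.0146), or 1.23-fold (95% interval 1.15 to 1.32). Without WT replicate 2 the adjusted p of limma was 0.0531 and the call was lost, as it also was with the replicate number as a block.

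Apoe encodes apolipoprotein E, the lipid carrier that Müller glia, astrocytes and also microglia release. It read 6.45, 6.45, 6.55 and 6.52 in WT and 6.74, 6.76, 6.80 and 6.81 in KO. Its groups were the furthest apart of the 10 genes, with 0.19 between the highest WT and the lowest KO sample. The difference was 0.29 (SE 0.04, limma adjusted p = 0.0122), or 1.22-fold (95% interval 1.14 to 1.30), which is close to the fold limit. This probe is printed 10 times on each array, and 9 to 10 of these spots passed on each, with an SD between spots of 0.05 to 0.06. It was called in each of the 8 fits that left out 1 array.

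The upstream window of Apoe is shown because it is the called gene whose window held most of the marked motifs. It lies at chr7:19699189-19699438 on the minus strand of GRCm38.p6, belongs to the furthest upstream of 3 listed starts, and is marked as above.
Apoe: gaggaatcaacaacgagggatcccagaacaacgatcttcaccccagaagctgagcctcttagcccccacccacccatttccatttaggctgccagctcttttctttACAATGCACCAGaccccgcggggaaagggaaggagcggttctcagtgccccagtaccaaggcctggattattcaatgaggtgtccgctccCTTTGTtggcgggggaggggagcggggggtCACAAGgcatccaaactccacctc
It held 2 SOX core matches and 2 N-box matches, no AP-1 and no STAT match, at a GC content of 57.2%. Such matches are common, at 25.2% of all windows for the SOX core and 36.7% for the N-box. The 2 motifs are bound by the families of Sox9 and Hes1, but whether either acts on Apoe was not tested. The Vim window, by comparison, held 1 N-box match and none of the other marked motifs.

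Dkk3 encodes a secreted member of the dickkopf family that is abundant in Müller glia. It read 5.57, 5.61, 5.52 and 5.63 in WT and 5.79, 5.80, 5.84 and 5.72 in KO. The groups were 0.09 apart, and KO replicate 4 was the lowest of its group. The difference of 0.20 (SE 0.04) had a limma adjusted p of 0.0368, and at 1.15-fold it stayed under the limit of 1.2. With no minimum fold change, a rule that calls 5.5% of all probes and 2.2% as higher, Dkk3 and the second Aqp4 probe were called as well. Clu and Apoe kept the same distance from each other: the level of Clu minus that of Apoe ran from -0.07 to 0.05 relative to its WT mean in WT and from -0.03 to 0.06 in KO (exact permutation p = 0.657).

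Vim, the intermediate filament vimentin of Müller glia and other glial and vascular cells, did not pass the test. It read 3.57, 3.59, 3.53 and 3.68 in WT and 3.57, 3.63, 3.65 and 3.63 in KO. No KO sample reached the highest WT sample. The difference was 0.03 (SE 0.04, limma adjusted p = 0.726), with a 95% interval from -0.07 to 0.13.

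Of the transcription factors, neither Sox9 nor Hes1 passed the test. Sox9 keeps glial and progenitor identity. It read -1.12, -1.09, -1.10 and -0.99 in WT and -1.01, -1.03, -0.97 and -1.09 in KO, so 1 KO sample was above the highest WT sample. The difference was 0.05 (SE 0.04, limma adjusted p = 0.534), with a 95% interval from -0.05 to 0.15, which leaves out the differences of Kcnj10, Clu, Apoe and Dkk3. This probe is also printed 10 times on each array, with 8 to 10 spots used and an SD between spots of 0.05 to 0.09.

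Hes1, a repressor switched on by Notch, read -3.64, -3.66, -3.71 and -3.73 in WT and -3.86, -3.79, -3.45 and -3.43 in KO. The KO samples fell apart into 2 below and 2 above the whole WT group, and their SD was 0.22 against 0.04 in WT. KO exceeded WT by 0.05 on average (SE 0.10, limma adjusted p = 0.804), and the 95% interval, -0.19 to 0.29, takes in the difference of Apoe. The value was -0.011 without KO replicate 3 and -0.017 without KO replicate 4. The interval of Hes1 is thus wide enough to leave its direction and size unsettled.

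**Figure D2:**
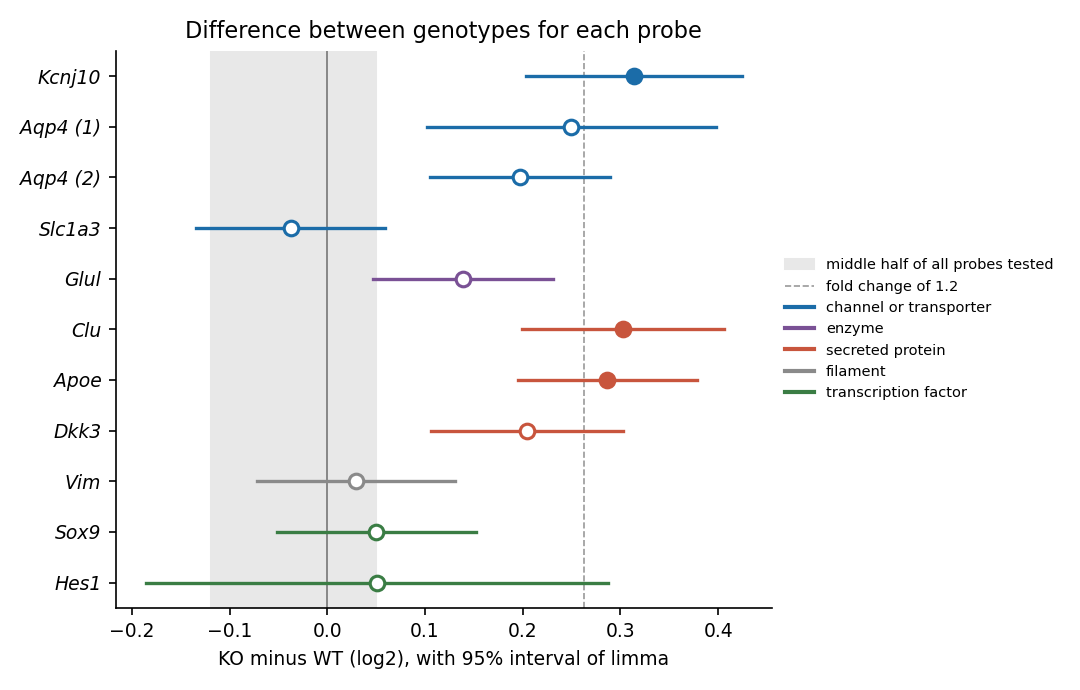
Difference between genotypes (KO minus WT, log2, x axis) for each of the 11 probes with the 95% interval of limma, coloured by role. Filled points were called; the grey band runs from the lower to the upper quartile of all 33972 probes tested (-0.12 to 0.05), and the dashed line is the fold change of 1.2.

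The channel and transporter genes and the secreted genes were then set against the transcription factors. The median difference was 0.25 for the 3 channel and transporter genes, 0.29 for the 3 secreted genes and 0.05 for the 2 transcription factors, against 0.17 over all 10 genes and -0.04 over all probes tested. Of the 6 channel, transporter and secreted genes, 5 were higher in KO without overlap and 3 were called. Both counts were 0 for the 2 transcription factors. Over all features, 6.04% of probes were higher in KO without overlap and 2.2% of named genes were called higher. At these shares a count of 0 among 2 genes says nothing about transcription factors. On each array, the mean level of the 6 genes minus the mean level of the 2 transcription factors was taken relative to its WT mean. It was -0.04, 0.01, 0.03 and 0.00 in WT replicates 1 to 4 and 0.24, 0.26, 0.09 and 0.09 in KO replicates 1 to 4. The groups did not overlap, and the lower KO values were those of replicates 3 and 4, the samples with high Hes1. The roles also differ in brightness. WT means were 5.58 to 6.73 for the secreted and 1.11 to 3.01 for the channel and transporter genes. They were -1.08 for Sox9 and -3.68 for Hes1, a dim probe with signals of 45.0 to 62.7. The part of brightness in this contrast was not tested.

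Gene by gene, the level of Kcnj10 minus that of Sox9 ran from -0.15 to 0.08 relative to its WT mean in WT and from 0.16 to 0.37 in KO, a change of 0.26 (exact permutation p = 0.0286, and 0.05 adjusted over the 7 pairs). The level of Clu minus that of Sox9 ran from -0.12 to 0.12 in WT and from 0.17 to 0.35 in KO, a change of 0.25 with the same p-values. These differences are higher in KO on every array, but none of the 7 pairs is under 0.05 after adjustment. Kcnj10 and Clu alone separated the genotypes and Sox9 did not, so a p at its floor was close to fixed by the choice of genes. The same holds for the pairs of Kcnj10 and Glul with Slc1a3. These p-values therefore do not test a contrast between roles. Kcnj10 and Aqp4 did not part from each other in this way (change of 0.06, exact permutation p = 0.486). For Sox9 and Hes1 the mean change was 0.00 (exact permutation p = 1), but the KO samples went both ways. The level of Sox9 minus that of Hes1 ran from -0.09 to 0.13 in WT and from -0.27 to 0.24 in KO.

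The members did not vary as 1 block among samples of the same genotype. Over the deviations of the 8 arrays from their genotype means, Pearson's r between 2 members ran from -0.73 (Slc1a3 and Hes1) to 0.84 (Aqp4 and Vim), with a median of 0.15 over the 45 pairs, 27 of them positive. Dkk3 and Sox9 (r = 0.79) and Slc1a3 and Sox9 (r = 0.78) deviated in the same direction, whereas the secreted Dkk3 and Clu deviated in opposite directions (r = -0.71). These values describe 8 arrays that share a slide and a scaling, and no test was made.

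Other genes of Müller glia were looked at as a list of 20, of which 19 were tested. Of these, 13 had a higher and 6 a lower value in KO, and the median difference was 0.11. Limma called 1 higher and 0 lower, against 2.2% and 1.77% of all named genes. A probe at an unadjusted p under 0.05 was found for 11 of the 19, against 29.4% of all 14939 named genes. The called gene was Prdx6, a peroxiredoxin that reduces phospholipid hydroperoxides. WT samples read 4.82 ± 0.09 and KO samples 5.11 ± 0.08 (SD, n = 4 each), 0.29 apart (SE 0.06, limma adjusted p = 0.0343), and 3 of its 4 probes were called. With 1 array left out, its brightest probe kept the call in 1 of 8 fits, the one without KO replicate 1 (limma adjusted p up to 0.0926), and it lost the call with a median shift (0.0866) or no filter (0.0996). Next in size were Cp, the copper ferroxidase ceruloplasmin, with 0.26 (SE 0.05, limma adjusted p = 0.0375), which just missed the fold limit, and Timp3, a secreted inhibitor of metalloproteinases, with 0.25 (SE 0.07, limma adjusted p = 0.0748). A further pair of genes, chosen after their values were seen, passed the limit on p and missed that on fold, in opposite directions. Dbi, which encodes an acyl-CoA binding protein, was at -0.19 on both of its probes (limma adjusted p = 0.024 and 0.0449), with all KO samples below all WT samples at the brighter one, and Cd9, a tetraspanin, was at 0.20 (limma adjusted p = 0.0323). The anchoring complex, the dystroglycan and dystrophin proteins and their partners that hold aquaporin-4 and Kir4.1 in the endfeet, gave 0 called genes of 8 tested by limma and a median of -0.02, with 2 genes having a probe at an unadjusted p under 0.05 and 0 called by the unmoderated test of the study's methods. The share of 2 in 8 is near the 29.4% of all named genes. Utrn had a difference of 0.17 (SE 0.08) and Sntb1 one of -0.10 (SE 0.08), while the second Sntb1 probe gave 0.24 (SE 0.12).

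Of the 22 genes of the glial lineage and the Notch pathway, all were tested and limma called 0, with 6 at an unadjusted p under 0.05, a share near the 29.4% of all named genes, and 0 called by the unmoderated test of the study's methods. The median difference was 0.02. The largest were Hes5, a Notch effector related to Hes1, with -0.38 (SE 0.12, limma adjusted p = 0.112), the receptor Notch1 with -0.26 (SE 0.16, limma adjusted p = 0.361) and Hes6 with -0.19 (SE 0.06, limma adjusted p = 0.106). Hes5 read 2.38 ± 0.10 in WT and 2.00 ± 0.26 in KO, and its KO samples lay below all WT samples. With 1 array left out the difference of Notch1 ran from -0.38 to -0.15.

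Of 11 tested genes of gliosis, 5 were called higher in KO and 0 lower, against 2.2% and 1.77% of all named genes. Of the 11, 8 had a higher and 3 a lower value, and the median difference was 0.34. The lower values were those of Lcn2 (-0.23), Serpina3n (-0.19) and Nes (-0.09), with limma adjusted p of 0.0693, 0.628 and 0.179. For Lcn2 and Nes all KO samples lay below all WT samples. Serpina3n was dim, at -4.36 in WT and well above background on only 3 KO arrays. With an SE of 0.21 its direction is unsettled. Edn2, the endothelin released by damaged photoreceptors, was at -4.29 ± 0.39 in WT and -2.39 ± 0.57 in KO and differed by 1.90 (SE 0.30, limma adjusted p = 0.0164). With the normexp background correction this difference was 1.14, and its call was lost with no filter on dim probes, without WT replicate 2 and without KO replicate 4 (limma adjusted p = 0.0593, 0.0559 and 0.0507). Cebpd, a transcription factor of the acute-phase response, rose by 0.90 (SE 0.08), Osmr, the oncostatin M receptor, by 0.41 (SE 0.06), Stat3, the transcription factor downstream of such cytokine receptors, by 0.38 (SE 0.05), and the growth factor Fgf2 by 0.34 (SE 0.07), with limma adjusted p from 0.0036 to 0.0403. The call of Fgf2 was kept in 1 of the 8 fits with 1 array left out, the one without WT replicate 3, and in 8 of 15 other settings, and its difference was 0.17 with the normexp correction. Osmr lost its call with no filter (limma adjusted p = 0.0516). Gfap, the filament by which gliosis is usually recognised, was chosen here after its values were seen, as were the 3 genes with lower values. It differed by 0.51 and 0.52 at its 2 probes (limma adjusted p = 0.174 and 0.0837) and was not called.

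Markers of the other retinal cells were measured in the same samples, since several of the 10 genes are not exclusive to Müller glia. The 12 microglia genes all had higher values in KO, 6 of them were called, led by Tyrobp (0.65) and C1qc (0.57), and their mean level was 0.06 to 0.17 in the WT samples and 0.44 to 0.47 in the KO samples. The 5 astrocyte genes all had higher values in KO, 3 of them without overlap (6.04% of all probes), and limma called 0. An unadjusted p under 0.05 was reached by 3, against 29.4% of all named genes. The unmoderated test of the study's methods called 0. The median was 0.13, with 0.24 for S100b. Aldh1l1, at 0.21, passed the limit on p (limma adjusted p = 0.0243) and missed that on fold. The mean level of the astrocyte genes was 0.97 to 1.19 in WT and 1.19 to 1.24 in KO. Each marker on both lists was well above background on all 8 arrays. The 12 rod genes all had lower values in KO, 4 were called, with -0.50 for Nr2e3 and -0.36 for Sag, and their mean level was 7.41 to 7.45 in WT and 7.14 to 7.23 in KO. The 9 cone genes all had higher values, with 2 called (Arr3 0.46, Opn1sw 0.43). Over all named genes, 2.2% were called higher and 1.77% lower. The part that these markers' differences have in the values of Apoe, Clu and Kcnj10 was not tested.

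The remaining lists gave 1 called gene, where 3.96% of all named genes were called. Limma called 0 of 10 bipolar, 0 of 10 amacrine and horizontal, 0 of 8 ganglion cell, 0 of 5 pericyte and 0 of 7 tested pigment epithelium genes, with medians of 0.03, 0.09, 0.04, -0.07 and 0.07. An unadjusted p under 0.05 was reached by 4, 4, 2, 1 and 1 of them, against 29.4% of all named genes, and the unmoderated test of the study's methods called 0 in each list. Endothelial genes gave 1 of 8, Flt1 with 0.31, at a median of -0.13, and their largest difference was -0.63 for Cdh5, which varied widely in WT (SD 1.02). The markers of rods, cones, bipolar, amacrine, horizontal and ganglion cells were all well above background on all 8 arrays.

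**Figure D3:**
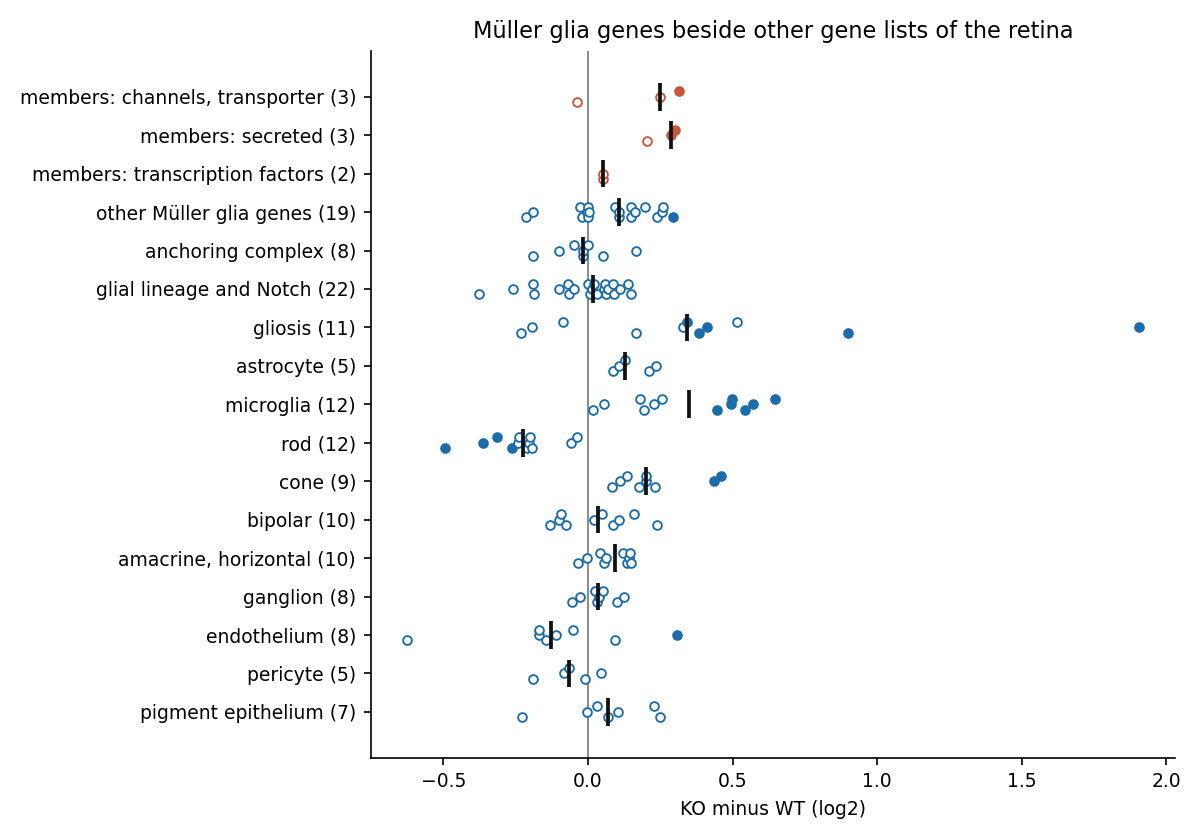
Difference between genotypes (KO minus WT, log2, x axis) of each gene, by its brightest probe, for the channel, secreted and transcription factor genes of Müller glia and for the other lists, with the number of genes tested in brackets. Filled points are genes with a called probe and the bar is the median of the list, from -0.22 (rod) to 0.35 (microglia).

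Genes that followed the members most closely were found by Pearson's r with the mean standardised level of the 10 genes over the 8 arrays, among 14929 other named genes. They were Selenop, a secreted selenoprotein (r = 0.979), Stat5b, a transcription factor (0.979), Grin2c, a glutamate receptor subunit (0.974), Ctss, the lysosomal protease cathepsin S of microglia and macrophages (0.972), and Ankrd27 (0.972). Their differences were 0.27, 0.21, 0.20, 0.34 and 0.25, and Selenop and Ctss were called. The mean standardised level ran from -0.89 to -0.19 in WT and from 0.31 to 1.05 in KO, highest in KO replicate 3. Since the genotypes differ on both sides of each r, these values are a description with no test.

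**Figure D4:**
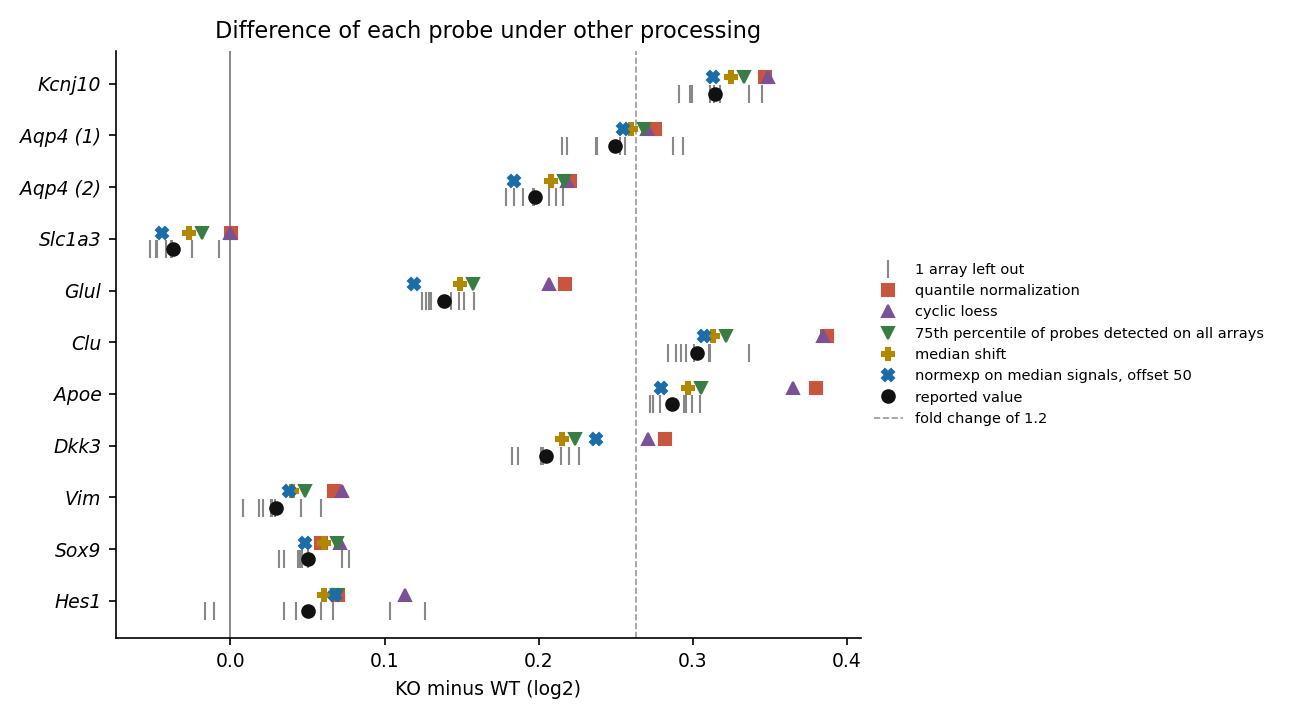
Difference between genotypes (KO minus WT, log2, x axis) of each of the 11 probes under other ways of processing: black points are the values given above, grey ticks the values with 1 array left out, and coloured symbols 4 other scalings and 1 other background correction. Kcnj10, Clu and Apoe stay to the right of the fold change of 1.2 throughout, and Hes1 crosses 0 when KO replicate 3 or 4 is left out.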

How the data were processed

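Total RNA of whole retina from 4 Lpcat1 WT and 4 KO samples was measured on Agilent SurePrint G3 mouse arrays in 1 colour (Cy3). The authors read the scans with Agilent Feature Extraction (version 10.7.1.1), and the deposited scanner files hold background-subtracted intensity for 62976 spots per array. The deposited table of the series holds log2 values after the authors' 75th percentile shift and was used only as an alternative. The 10 genes and all gene lists were chosen with earlier results of these data known.

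Levels were log2 processed signal minus the 75th percentile of 59305 non-control spots. Spots marked as outliers (86 to 147 per array) were dropped and repeated spots averaged. A probe was tested when all 4 arrays of either genotype had it well above background. Transcripts were named through a RefSeq gene table (47.4% of probes). A gene was represented by its brightest probe and called when any probe was. Limma 3.58.1 (lmFit, eBayes) in R 4.3.3 was used without covariates, with Benjamini-Hochberg adjustment. Single values were compared by exact two-sided permutation tests, whose smallest p is 0.0286. With 4 arrays per genotype, the number of arrays limits the precision. The fit was run on simulated data with independent noise and no effect of slide position, so that run does not bear on the differences reported here.

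Named genes were the 10 members, Lpcat1, every called gene of the other glial lists (or the largest differences, up to 3), at most 2 genes of each list of another cell type, and the 5 genes most alike over the arrays. Gfap, Lcn2, Serpina3n, Nes, Dbi and Cd9 are exceptions, and 1 gene that the rule names is not reported here. Alternatives were other scalings, a normexp background correction (offset 50) on median spot signals, other filters, tests and thresholds, replicate number as a block, and each array left out in turn.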

Additional observations from a re-analysis of the deposited data

How the results depend on the processing

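Each difference of the 10 genes kept its sign under all alternatives run, with the exceptions of Slc1a3 (0.00016 with quantile normalization) and Hes1, which ranged from -0.017 (without KO replicate 4) to 0.126 (without KO replicate 1) with 1 array left out and was -0.011 without KO replicate 3. The 3 genes called became 5 with quantile normalization, cyclic loess or no minimum fold change, where Aqp4 and Dkk3 joined them, 0 with no filter on dim probes, where 55681 probes were tested, and 0 at a fold change over 1.5. They ranged from 2 to 4 when 1 array was left out. The median of the 10 genes moved from 0.17 to 0.25 (quantile) and 0.24 (cyclic loess), and that of the secreted genes from 0.29 to 0.38 and 0.37. The cause of these moves was not tested. The median of the transcription factors was 0.06 with quantile normalization and ran from 0.01 to 0.09 with 1 array left out. Over all probes, 992 calls became 246 with no filter, 1869 with no minimum fold change, 138 at a fold change over 1.5, and 391 (without WT replicate 2) to 1182 (without KO replicate 1) with 1 array left out. Calls higher and lower were 470 and 522, but 518 and 389 with quantile normalization, 563 and 374 with the percentile of detected probes, 629 and 341 with cyclic loess, and 513 and 422 with the authors' values. Genes called in the other 4 glial lists numbered 6, and 3 with no filter, 2 at a fold change over 1.5 and 4 to 8 with 1 array left out.

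Arrays of the same replicate number shared a slide column. Their deviations correlated with r from 0.04 to 0.25, against r from -0.20 to 0.06 for arrays of different numbers. These ranges overlap, so a pairing by column is neither shown nor excluded. With the replicate block, 395 probes and 1 of the 10 genes (Apoe) were called, while Kcnj10 and Clu had a limma adjusted p of 0.0571 each.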
